A study of Mus musculus with 2 samples.

Results

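Transcripts of the switch between glucose and fatty acid oxidation were compared between milk-producing mammary epithelial cells (MECs) of WT and Igfbp7-/- mice. The 9 genes described are the 4 pyruvate dehydrogenase kinases Pdk1, Pdk2, Pdk3 and Pdk4, the 3 peroxisome proliferator-activated receptors Ppara, Ppard and Pparg, and the PPAR target genes Angptl4 and Cpt1a. They were taken by symbol from the 25810 named genes in the files, and the group was put together with the ratios of these same libraries known, so that all ratios of the 9 genes are given as a description and none was tested. The cells came from inguinal glands at lactation day 3. The WT animals carried an intact Igfbp7 and the Igfbp7-/- animals a germline deletion of its first coding exon, present in every cell type of the gland. The labels list no treatment for either group. According to the labels both genotypes were on C57BL/6, whereas the methods of the study place the knockout on CD1, and the age of the animals and their number per library were not given in the sources used here. Magnetic separation against CD45, CD31 and Ter119 was used to deplete leukocytes, endothelial cells and erythroid cells, although the labels name CD35 instead of CD31, and transcripts of all of these cell types were still detected (values below). Poly(A) RNA was then sequenced as 1 library per genotype. There was thus no replicate error for any value, and intervals given below cover counting error only.

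Pyruvate dehydrogenase kinases phosphorylate the pyruvate dehydrogenase complex and switch it off, which keeps pyruvate from entering the mitochondrial citric acid cycle as acetyl-CoA. PPARs are nuclear receptors for fatty acids and their derivatives, bind DNA together with a retinoid X receptor, and turn on genes of lipid uptake, storage and oxidation, among them Pdk4, Angptl4 and Cpt1a. In the lactating gland, glucose is the source of lactose and of much of the acetyl-CoA for milk fat.

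The mapped reads numbered 34327854 in WT and 35016847 in Igfbp7-/-, of which 82.3% and 72.3% fell on named genes. Levels are given as RPM, which relates the reads of a gene to all mapped reads of its library. A single read amounted to 0.0291 RPM for WT and 0.0286 RPM for Igfbp7-/-. Igfbp7 itself had 5224 reads in WT and 37 in Igfbp7-/- (152.2 and 1.06 RPM). A gene was called higher or lower where its RPM, after addition of a pseudocount of 0.1 RPM, differed at least 1.5 times between the libraries, and only genes with 1 RPM or more in at least one library were counted. Of 14026 such genes, 21.4% were higher in Igfbp7-/-, 23.0% were lower and 44.5% passed in either direction, and the median log2 ratio was 0.03. Of the 9 genes, 8 passed the minimum level. Of these, Pdk1, Pdk4, Angptl4 and Cpt1a were higher (4), Pdk3 and Ppard were lower (2), and Pdk2 and Pparg lay within 1.5 times (2), with a median log2 ratio of 0.34. Since the group was chosen on this contrast, nothing is read from its share of called genes.

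**Figure D1:**
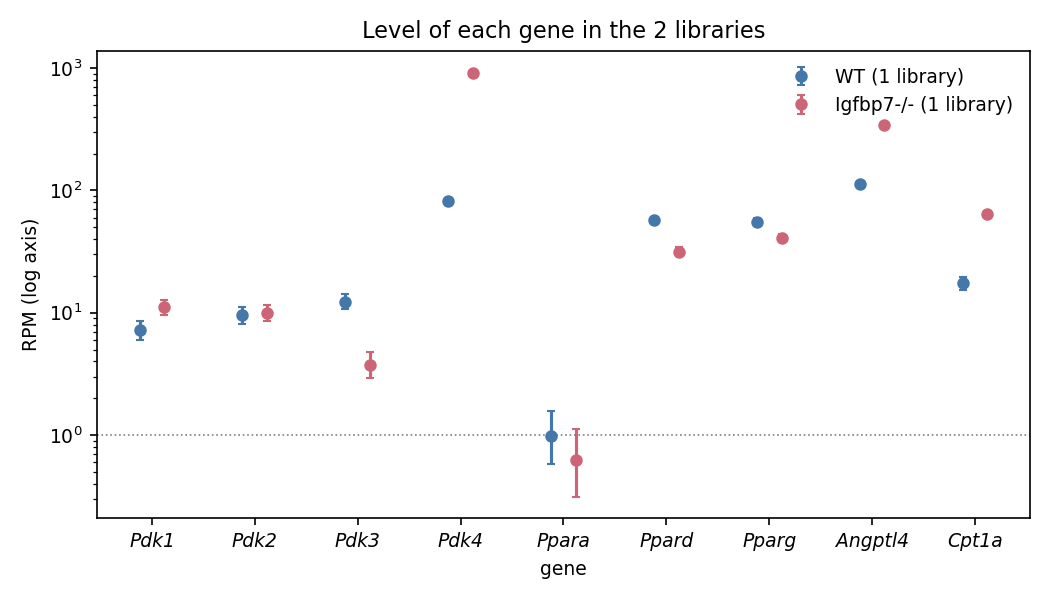
RPM of the 9 genes in the WT and the Igfbp7-/- library on a log axis, with 95% Poisson intervals on read pairs that cover counting error only, and a dotted line at 1 RPM. Pdk4, Angptl4 and Cpt1a lie far higher in Igfbp7-/-, Pdk3 and Ppard lie lower, and the intervals of Pdk2 and of Ppara overlap between the libraries.

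Pdk4, the kinase isoform known to be induced by fasting and lipid, had 2813 reads in WT and 32053 in Igfbp7-/-. Its level was 81.9 RPM (95% Poisson interval on read pairs 77.7 to 86.4) in WT and 915 RPM (901 to 929.7) in Igfbp7-/-, which is 11.2 times higher (log2 ratio 3.48, 3.40 to 3.56 by the 95% Clopper-Pearson interval on read pairs). Both intervals are narrow beside this difference, but how much it would vary between animals could not be measured. The ratio was the 35th highest of the 14026 genes. Ordered by RPM over all named genes, Pdk4 moved from rank 1737 in WT to rank 57 in Igfbp7-/-. Of the 57 genes at or above its level in Igfbp7-/-, Pdk4 itself among them, 0 had a higher ratio. As the group was chosen with these ratios known, the ranks are a description only. Because the cells were profiled in bulk, fewer cells of a type and less RNA per cell cannot be told apart here or in any ratio below.

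Pdk3, an isoform of narrow tissue distribution that is little sensitive to feedback by pyruvate, went the other way. It had 423 reads in WT and 131 in Igfbp7-/-, or 12.3 RPM (10.7 to 14.1) and 3.74 RPM (2.92 to 4.80), and was lower by 3.23 times (log2 ratio -1.69, -2.13 to -1.31). Pdk1, the isoform known as a target of hypoxia signalling, had 246 reads (7.17 RPM, 5.96 to 8.55) in WT and 390 (11.1 RPM, 9.63 to 12.8) in Igfbp7-/-. Its ratio of 1.55 (log2 0.63, 0.30 to 0.97) was the one just inside the threshold, and it passed no longer with a pseudocount of 1 RPM (log2 0.57) or when the 20 most abundant genes were left out of the scaling (log2 0.49). Pdk2, the most widely expressed isoform in adult tissues, differed little, with 326 reads (9.50 RPM, 8.09 to 11.1) in WT and 347 (9.91 RPM, 8.52 to 11.5) in Igfbp7-/- and a log2 ratio of 0.06 (-0.25 to 0.38). It overlaps the predicted gene Gm11513 on the opposite strand without a shared exon, and the 9 genes had no other overlap in the annotation.

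**Figure D2:**
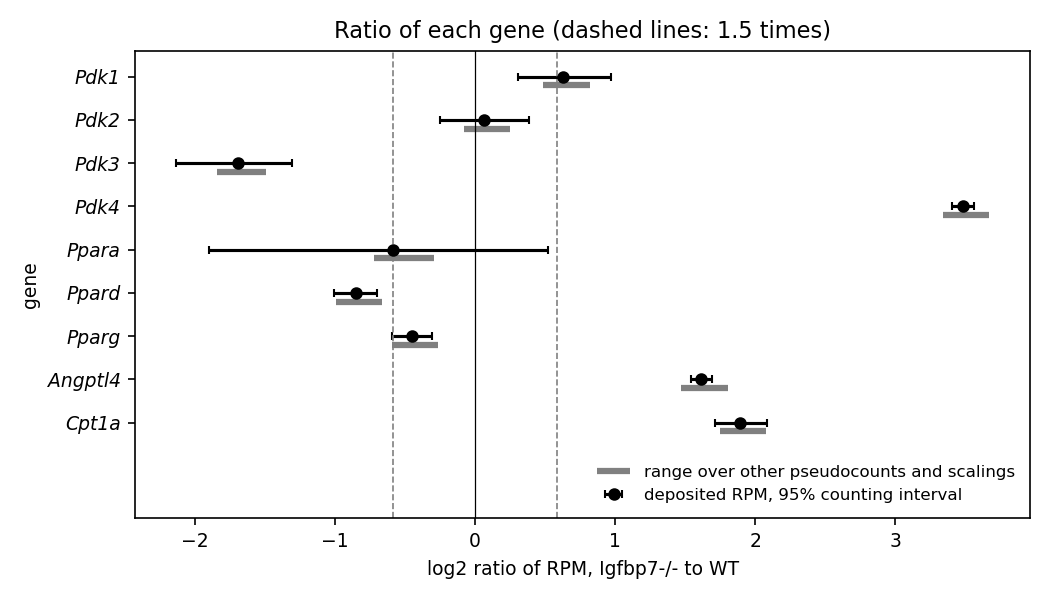
Log2 ratio of RPM in Igfbp7-/- to RPM in WT for each of the 9 genes, with a pseudocount of 0.1 RPM and 95% Clopper-Pearson intervals on read pairs, which cover counting error only, lines at a ratio of 1.5 in either direction, and grey bars for the range over other pseudocounts and scalings. Pdk4 stands apart at 3.48, Pdk3 is the lowest at -1.69, and the wide interval of Ppara reflects its low read counts.

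Per kilobase of transcript, the only scale on which different genes can be set side by side, Pdk4 was already the main kinase transcript in WT, at 23.7 RPKM (the RPM divided by the transcript length in kilobases) against 6.16 for Pdk3, 4.17 for Pdk2 and 1.40 for Pdk1. In Igfbp7-/- the values were 265 RPKM for Pdk4, 4.35 for Pdk2, 2.17 for Pdk1 and 1.87 for Pdk3. Pdk4 thus exceeded the next kinase 3.85 times in WT and 61.0 times in Igfbp7-/-, and Pdk3 went from second to last in the order of the 4. The summed RPKM of the family was 35.5 in WT and 273.5 in Igfbp7-/-, a ratio of 7.71, and Pdk4 made up 66.9% of it in WT and 96.9% in Igfbp7-/-. Without Pdk4 the sum was the smaller one in Igfbp7-/-, at 11.7 RPKM in WT and 8.39 in Igfbp7-/-. The share of Pdk3 was 17.4% in WT and 0.684% in Igfbp7-/-, that of Pdk2 11.8% and 1.59%, and that of Pdk1 3.93% and 0.793%. These shares are ratios within a library and do not depend on the scaling between the libraries.

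**Figure D3:**
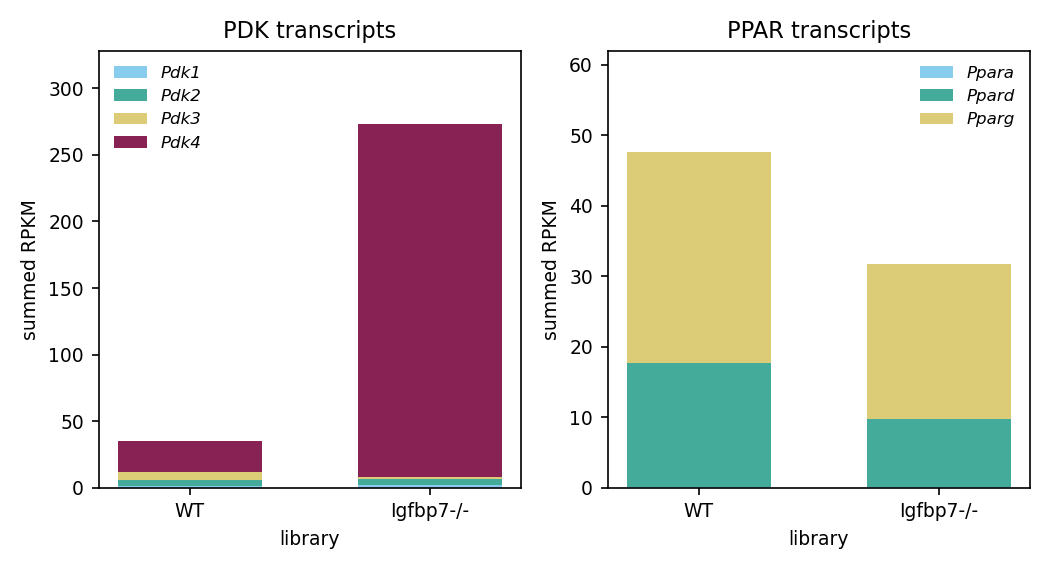
Stacked RPKM of the 4 PDK transcripts and of the 3 PPAR transcripts in each library. Pdk4 accounts for most of the PDK sum in both libraries and for nearly all of it in Igfbp7-/-, the PPAR sum is smaller in Igfbp7-/-, and Ppara is too low to be seen.

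Among the receptors none was higher in Igfbp7-/-. Ppard, the widely expressed PPAR, which drives oxidation genes in muscle, had 1952 reads (56.9 RPM, 53.4 to 60.5) in WT and 1102 (31.5 RPM, 28.9 to 34.2) in Igfbp7-/-, and was lower by 1.80 times (log2 ratio -0.85, -1.01 to -0.70). Pparg, the receptor of fat storage and adipocyte differentiation, had 1910 reads (55.6 RPM, 52.2 to 59.3) in WT and 1425 (40.7 RPM, 37.8 to 43.8) in Igfbp7-/-. At 1.37 times lower (log2 ratio -0.45, -0.59 to -0.31) it was the counted gene just outside the threshold, and it passed (log2 -0.59) when the 20 most abundant genes were left out of the scaling. Ppara, the receptor of hepatic fatty acid oxidation, was close to the limit of what the libraries can quantify, with 34 reads in WT and 22 in Igfbp7-/- (0.990 RPM, 0.577 to 1.59, and 0.628 RPM, 0.314 to 1.12). Its log2 ratio of -0.58 had an interval from -1.90 to 0.52, and a difference in either direction was not detectable at this depth. Per length, Pparg was the most abundant receptor in both libraries (30.0 and 21.9 RPKM), followed by Ppard (17.6 and 9.71) and Ppara (0.133 and 0.0843). The summed PPAR level was 47.6 RPKM in WT and 31.7 in Igfbp7-/-, 1.5 times lower, and the share of Pparg was 62.9% and 69.1%.

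Both PPAR targets were higher in Igfbp7-/-. Angptl4, a secreted protein that inhibits lipoprotein lipase, had 3865 reads in WT and 12087 in Igfbp7-/-, or 112.6 RPM (107.7 to 117.8) and 345 RPM (337 to 354). The ratio was 3.06 times, a log2 ratio of 1.62 (1.54 to 1.69). Cpt1a, which couples long-chain fatty acids to carnitine at the outer mitochondrial membrane and is the regulated entry step of their oxidation, had 595 reads in WT and 2259 in Igfbp7-/-, or 17.3 RPM (15.4 to 19.4) and 64.5 RPM (60.8 to 68.4). It was 3.71 times higher (log2 ratio 1.89, 1.71 to 2.08). Within the 8201 genes that reached 10 RPM in either library, Pdk4 had the 18th, Cpt1a the 122nd and Angptl4 the 192nd highest ratio. The summed RPKM of the carnitine palmitoyltransferase 1 genes Cpt1a, Cpt1b and Cpt1c was 4.84 in WT and 15.9 in Igfbp7-/-, with 82.7% and 93.7% from Cpt1a. Cpt1b, the muscle isoform, was at 0.302 and 0.207 RPKM, and Cpt1c, the brain isoform, at 0.536 and 0.789 RPKM. Cpt1b rested on 30 reads in WT and 21 in Igfbp7-/-, and Cpt1c on 50 and 75. The counting intervals of their log2 ratios both included 0 (-1.74 to 0.74 for Cpt1b and -0.19 to 1.36 for Cpt1c).

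By RPKM the order of the 9 genes in WT was Angptl4 (58.8), Pparg, Pdk4, Ppard, Pdk3, Pdk2, Cpt1a (4.0), Pdk1 and Ppara. In Igfbp7-/- it was Pdk4, Angptl4 (180.2), Pparg, Cpt1a (14.9), Ppard, Pdk2, Pdk1, Pdk3 and Ppara. Pdk4 and Cpt1a each moved ahead of genes that had exceeded them in WT, Pdk4 ahead of both Angptl4 and Pparg, and Cpt1a ahead of Pdk2, Pdk3 and Ppard. Without replicates it cannot be said which neighbours in either order differ beyond the spread between animals.

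**Figure D4:**
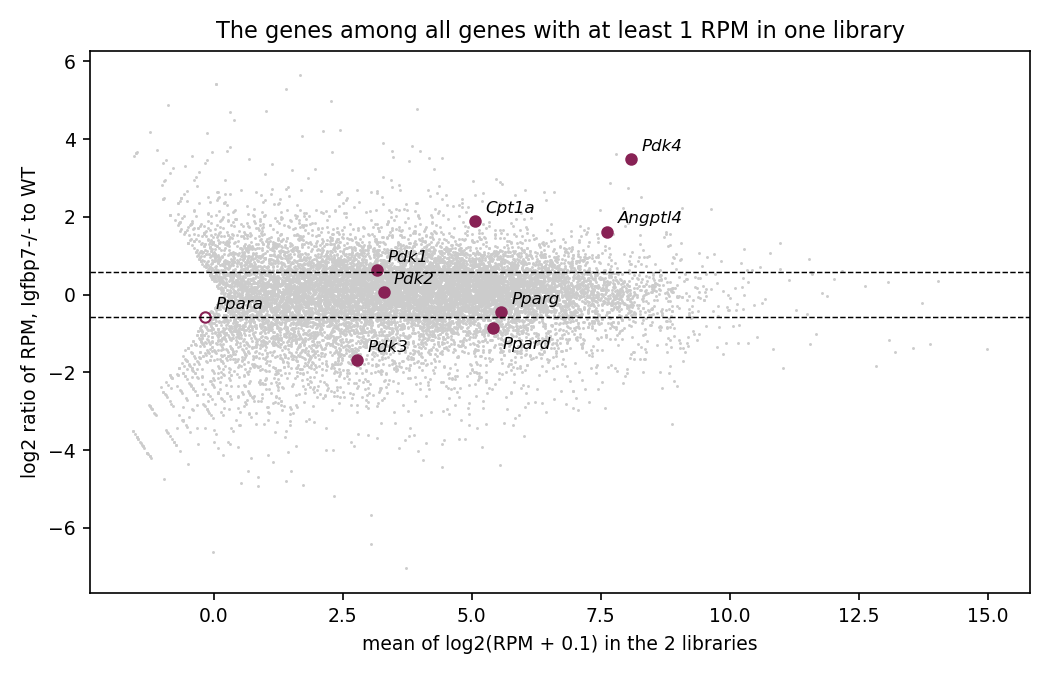
Log2 ratio of Igfbp7-/- to WT against mean level, log2(RPM + 0.1), for all 14026 genes that reached 1 RPM in either library, with the 9 genes labelled, Ppara as an open circle because it stayed under that minimum, and lines at a ratio of 1.5. Pdk4 lies at the upper edge of the cloud for its level, Cpt1a and Angptl4 are above most genes, and Pdk3 is among the lower genes.

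In the mouse genome build NCBIM37 (mm9), Pdk4 occupies positions 5433351 to 5446309 of chromosome 6, minus strand, and has 11 exons in its longest annotated transcript. Cpt1a is found at 3323301 to 3385732 of chromosome 19, plus strand, with 19 exons, and Angptl4 at 33910695 to 33918520 of chromosome 17, minus strand, with 7. Pdk3 is X-linked, at 91009946 to 91077540, minus strand, and Ppard is at 28369699 to 28438414 of chromosome 17, plus strand. The plus strand also carries Pdk1 (chromosome 2, 71711281 to 71741915), Ppara (chromosome 15, 85565413 to 85633249) and Pparg (chromosome 6, 115311239 to 115440419), and the minus strand Pdk2 (chromosome 11, 94887572 to 94902668). Genes next to Pdk4 that passed the minimum level did not share its ratio. Asb4, at 50.3 kb, was at 3.18 RPM in WT and 3.20 in Igfbp7-/-, and Pon2, on the same side at 184.9 kb, at 15.4 and 13.8 RPM. On the other side, Slc25a13 was at 14.3 and 11.3 RPM, and Dync1i1 was under 1 RPM in both libraries. The counted neighbours of Cpt1a were both higher in Igfbp7-/-, though less so than Cpt1a. Mrpl21 was at 1.37 and 2.11 RPM (log2 ratio 0.59) and Ighmbp2 at 1.86 and 3.51 RPM (0.88). Beside Angptl4, Kank3 (log2 ratio -0.96) and Rps28 (-1.10) were lower, and Rab11b (0.16) and Hnrnpm (0.30) lay within the threshold. Whether neighbouring genes differed together was not tested.

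The 250 bases before the annotated start of Pdk4 and of Cpt1a, the pair with the highest ratios among the 9 genes, are shown because receptors that act on these genes bind DNA. Both are taken from RefSeq on build GRCm38.p6, run 5′ to 3′ on the strand of the gene, and are in lower case with any exact match to the PPAR and RXR half-site AGGTCA, or to its complement TGACCT, in capitals. The Pdk4 stretch is chr6:5496279-5496528 on the minus strand and the Cpt1a stretch chr19:3323051-3323300 on the plus strand.
Pdk4: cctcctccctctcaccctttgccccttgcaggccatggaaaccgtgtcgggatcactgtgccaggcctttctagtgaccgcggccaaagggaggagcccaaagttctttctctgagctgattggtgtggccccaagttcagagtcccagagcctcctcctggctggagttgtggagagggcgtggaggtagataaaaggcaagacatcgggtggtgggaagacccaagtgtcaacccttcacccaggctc
Cpt1a: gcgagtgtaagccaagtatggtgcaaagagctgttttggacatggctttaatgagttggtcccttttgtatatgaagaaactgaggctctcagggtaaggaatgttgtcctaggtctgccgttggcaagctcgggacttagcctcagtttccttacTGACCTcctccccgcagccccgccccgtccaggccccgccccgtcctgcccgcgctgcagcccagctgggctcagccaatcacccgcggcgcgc
The Cpt1a stretch holds 1 such match, beginning 94 bases before the start, and the Pdk4 stretch holds none. Windows of 250 bases before to 50 bases after the start were found for 8 of the 9 genes, all but Angptl4, in 12 windows. AGGTCA, searched on both strands, occurred in 16.3% of the 32851 promoter windows of the RefSeq table, and among the 9 genes in those of Cpt1a and Pparg. The direct repeat DR1, which is made of that half-site on either side of 1 free base and was allowed 3 mismatches, occurred in 24.6% of all windows and in an alternative window of Pdk2. The FoxO site GTAAACA was in 3.65% of all windows and in none of these, and the glucocorticoid receptor half-site AGAACA was in 19.0% and in an alternative window of Pdk1. A match is only a run of letters, and a missing match says nothing about sites outside these windows. The GC content was 58.8% in the Pdk4 stretch and 59.6% in the Cpt1a stretch.

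The other genes of these pathways were described with 9 lists, in which 123 different genes passed the minimum level, 39 of them higher and 23 lower in Igfbp7-/-, beside the 21.4% higher and 23.0% lower of all genes given above. The list that joins the enzyme complex that the kinases act on with its phosphatases and the pyruvate carrier had more genes lower than higher. Of 10 genes of the pyruvate dehydrogenase complex, its phosphatases and the mitochondrial pyruvate carrier, 5 were lower, 1 was higher and 4 lay within 1.5 times, with a median log2 ratio of -0.63. Scaled to reads on listed genes, 3 were lower and 1 was higher. Those lower were Mpc1 (listed as Brp44l), a subunit of the pyruvate carrier, at 76.4 RPM in WT and 30.8 in Igfbp7-/-, the component that tethers the E3 subunit, Pdhx (11.7 and 5.14 RPM), the acetyltransferase subunit Dlat (46.0 and 27.2), the E1 subunit Pdhb (72.4 and 45.5) and the phosphatase Pdp2 (3.85 and 2.20). Pdpr, the regulatory subunit of the phosphatase, was higher (3.06 and 9.82 RPM). Pdha1, the E1 subunit on which the kinases act, was at 103 RPM in WT and 98.9 in Igfbp7-/- (log2 ratio -0.06, -0.16 to 0.03), so that the transcript of the kinase target differed little while that of Pdk4 differed 11.2 times.

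Apart from Cpt1a, which was kept out of the list, 12 genes for fatty acid activation, the carnitine shuttle and malonyl-CoA were counted. Of these, 2 were higher, 1 was lower and 9 lay within 1.5 times (median log2 ratio -0.18), and 3 were lower with the 20 most abundant genes left out. The 2 higher ones were Slc22a5, the plasma membrane carnitine transporter (14.6 RPM in WT and 37.3 in Igfbp7-/-), and Slc25a20, the carnitine-acylcarnitine carrier of the inner mitochondrial membrane (6.47 and 11.8 RPM). The lower one was Acacb, the acetyl-CoA carboxylase whose malonyl-CoA inhibits CPT1, at 49.7 and 11.2 RPM, 4.42 times lower (log2 ratio -2.14, -2.38 to -1.92). Cpt2, which reverses the CPT1 reaction inside the mitochondrion, was at 11.8 and 10.2 RPM.

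Mitochondrial beta-oxidation itself had 7 higher, 2 lower and 9 within 1.5 times of 18 genes, with a median log2 ratio of 0.38. Of those that reached 10 RPM in either library, the highest ratios were those of Acaa2, the last thiolase of the spiral (13.7 RPM in WT and 32.3 in Igfbp7-/-), Acadl, the long-chain acyl-CoA dehydrogenase (34.9 and 63.8 RPM), and Hadha, a subunit of the trifunctional protein (48.8 and 84.2 RPM). The less abundant Acad10 (1.31 and 2.63 RPM) had a ratio between those of Acaa2 and Acadl. The 2 lower genes were the short-chain enzymes Echs1 (27.8 and 16.5 RPM) and Hadh (26.5 and 17.3 RPM), of which 1 passed with a pseudocount of 1 RPM and 0 when scaled to reads on listed genes. None of the 7 differed as much as Cpt1a, the highest being Acaa2 at 2.34 times, and with a threshold of 2 times 1 of the 18 was higher and 0 lower. In the peroxisomal list of 17 genes, 4 were higher (Ech1, Acaa1b, Acox2 and Pex11a), 3 were lower (Crot, Abcd3 and Decr2) and 10 lay within 1.5 times, with a median log2 ratio of 0.05. Ech1, an enzyme for unsaturated fatty acids, was at 21.2 and 41.3 RPM, whereas Acaa1b and Acox2 rested on 14 reads each in WT, and Acaa1b is a close copy of Acaa1a whose reads may be shared.

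Other target genes of the PPARs went both ways. Of 19 counted, 10 were higher, 5 were lower and 4 lay within 1.5 times, and the median log2 ratio was 0.69. With a minimum of 1 RPM in both libraries 6 of 14 were higher. Acot1, an acyl-CoA thioesterase, was at 23.6 RPM in WT and 139.7 in Igfbp7-/-, with reads that may be shared with its near-identical neighbours, and the fatty acid transporter Slc27a1 was at 5.91 and 27.6 RPM. The lipid droplet coat gene Plin2, named after its values were seen, was at 337 and 846 RPM. The 5 lower genes were Fabp4 (543 RPM in WT and 173 in Igfbp7-/-), Fabp3 (465 and 193), Lpl (816 and 342), Cidec (4.57 and 1.03) and Adipoq (5.59 and 1.0). Fabp4, Cidec and Adipoq are also adipocyte markers, Fabp3 carries fatty acids inside the cell, and Lpl encodes the lipoprotein lipase that takes fatty acids from blood lipoproteins into milk fat. The 10 adipocyte markers, these 3 included, summed to 584 RPM in WT and 210.4 in Igfbp7-/-, with 4 of the 6 counted lower, 1 higher and none at 0. Fabp4 carried most of that sum, and the other 9 markers together came to 40.9 and 37.0 RPM. That second sum mixes directions. Lep (8.04 RPM in WT and 16.8 in Igfbp7-/-) was higher and Lipe (10.5 and 15.5) rose within 1.5 times. Cfd (9.99 and 1.51), Cidec and Adipoq were lower, and Plin1, Retn, Adrb3 and Pck1 stayed under 1 RPM in both libraries. The part of the adipocyte markers in the result was not tested.

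Among lipoprotein lipase, its partners and the angiopoietin-like genes other than Angptl4, no gene was higher, 4 were lower and 5 lay within 1.5 times of 9 counted (median log2 ratio -0.49). Scaled to reads on listed genes 1 was higher, and with no minimum level 3 of 14 were. Beside Lpl, the lower ones included Gpihbp1, the endothelial anchor of the lipase (24.8 RPM in WT and 3.83 in Igfbp7-/-), and the endothelial lipase Lipg (173 and 57.2 RPM). Angptl4, the inhibitor, and Lpl, the enzyme it inhibits, therefore lay on opposite sides of the threshold, at 3.06 times higher and 2.39 times lower. Endothelial cells were a target of the depletion, yet the summed level of 8 endothelial markers was 1249 RPM in WT and 407 in Igfbp7-/-, with 7 of 8 lower, none higher and none at 0. Gpihbp1 is one of them, and their part in this result was not tested.

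Receptor partners and cofactors were more often higher, with 9 higher, 1 lower and 5 within 1.5 times of 15 counted (median log2 ratio 0.64). With the 20 most abundant genes left out, 6 were higher and 1 was lower, and with a threshold of 2 times 3 were higher and 0 lower. Among the highest were the corepressor Nrip1 (138 RPM in WT and 497 in Igfbp7-/-) and the deacetylase Sirt1 (38.9 and 82.3 RPM). Rxra, the DNA-binding partner of the PPARs, named after its values were seen, was at 40.7 and 76.4 RPM, opposite in direction to Ppard. The lower gene was the coactivator Ppargc1b (1.98 and 1.0 RPM), which rested on 68 and 35 reads (log2 ratio -0.92, -1.86 to -0.08) and did not pass with a pseudocount of 1 RPM. Of 19 genes of insulin signalling, FoxO factors and other nuclear receptors that act on Pdk4, 6 were higher, 0 were lower and 13 lay within 1.5 times (median log2 ratio 0.42). Scaled to reads on listed genes 10 were higher, and with the 20 most abundant genes left out 6 were higher and 1 was lower. Foxo3, a factor restrained by insulin, was at 37.2 and 120.4 RPM, the insulin receptor substrate Irs2 at 66.9 and 179 RPM, and the kinase Pdpk1 at 73.1 and 126 RPM. Foxo1, also named after its values were seen, was at 120.3 and 161 RPM and did not pass 1.5 times.

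Of 6 ketone body enzymes counted, 1 was higher, 3 were lower and 2 lay within 1.5 times (median log2 ratio -0.65). The lower ones were Oxct1 (156 RPM in WT and 43.4 in Igfbp7-/-), Acat1 (23.4 and 9.25 RPM) and Bdh2, which rested on 42 reads in WT and 21 in Igfbp7-/- and whose log2 ratio of -0.92 had a counting interval from -2.16 to 0.16. With a pseudocount of 1 RPM 2 were lower. Oxct1 acts in the use of ketone bodies as fuel, and Acat1 in both their formation and their use.

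**Figure D5:**
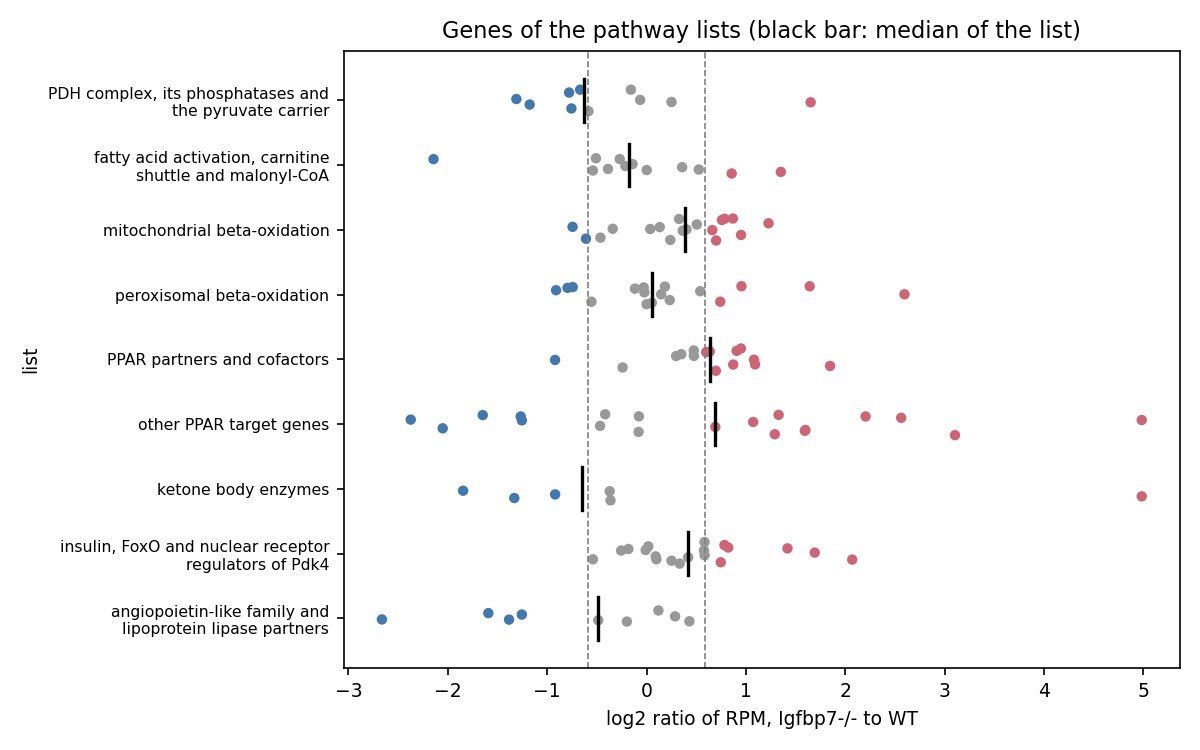
Log2 ratio of Igfbp7-/- to WT for each gene of the 9 pathway lists that reached 1 RPM in either library, with the median of each list and lines at a ratio of 1.5; red and blue mark genes higher and lower past that ratio. The medians run from -0.65 for ketone body enzymes to 0.69 for other PPAR target genes.

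The nearest genes to Pdk4 in level and ratio were sought among all genes that reached 10 RPM in either library, by the distance between log2(RPM + 0.1) values over the 2 libraries. They were the membrane mucin gene Muc4 (63.9 RPM in WT and 783 in Igfbp7-/-, distance 0.42), the cell adhesion gene Ceacam1 (101.4 and 679 RPM, 0.53), the acute phase gene Saa1 (75.4 and 553 RPM, 0.74), the major histocompatibility gene H2-D1 (130.7 and 741 RPM, 0.74) and the acute phase gene Saa2 (113.3 and 529 RPM, 0.92). None belongs to fatty acid oxidation. Saa1 and Saa2 are near-identical copies, and H2-D1 belongs to a family of similar genes, so that their reads may be shared with other genes. With a pair of libraries this likeness states only that the levels were alike.

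Marker genes of the cell types that the samples could hold differed between the libraries as well. The luminal keratins Krt8, Krt18 and Krt19 summed to 624 RPM in WT and 2255 in Igfbp7-/-, 3.61 times higher, the epithelial adhesion gene Epcam was at 338 and 482 RPM, and the milk protein genes Csn2, Wap and Lalba summed to 67220 and 24025 RPM. All 8 luminal and secretory markers were detected in both libraries, with 3 higher, 3 lower and 2 within 1.5 times and a summed level of 68319 RPM in WT and 26857 in Igfbp7-/-. Myoepithelial markers were lower for 6 of 7 (sum 3085 and 976 RPM), fibroblast markers for 4 of 7 (9226 and 4694 RPM), and leukocyte and macrophage markers for 5 of 8 (199 and 89.5 RPM), with none higher and none at 0. The adipocyte marker that was higher was Lep (8.04 and 16.8 RPM). Erythroid markers summed to 1066 and 1243 RPM with none of 4 past 1.5 times. Skeletal muscle markers were near absent, with 8 of them summing to 1.69 and 0.800 RPM, Myh4 at 0 in both libraries, and Myh1 and Myl1 at 0 in Igfbp7-/-. Leukocytes and erythroid cells had also been targets of the depletion. The part of these cell types in the ratios of the 9 genes was not tested.

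How the 9 genes compared thus depended on what they were set against, which was computed after the data had been seen. Relative to the sum of Krt8, Krt18 and Krt19, Pdk4 was still higher in Igfbp7-/- with a log2 ratio of 1.63, whereas Cpt1a was at 0.04 and Angptl4 at -0.24. Relative to Epcam, the log2 ratios were 2.97 for Pdk4, 1.38 for Cpt1a and 1.10 for Angptl4, and Pdk1 was at 0.12. Relative to Csn2, Wap and Lalba they were 4.96 for Pdk4, 3.37 for Cpt1a and 3.10 for Angptl4, and both Ppard (0.63) and Pparg (1.03) were then higher. Pdk4 was higher and Pdk3 had a negative log2 ratio under all 3, although that of Pdk3 relative to the milk protein genes was only -0.23. Each reference also moved the other genes. The median log2 ratio over all genes was -1.765 relative to the keratins, -0.467 relative to Epcam and 1.505 relative to the milk protein genes. A reference divides all genes of a library by the same factor, so the place of a gene relative to the median hardly changes. Pdk4, Cpt1a, Angptl4, Pdk1 and, narrowly, Pdk2 lay above that median, and Pdk3, Ppara, Ppard and Pparg below it. The same split was present in RPM without a reference, where Pdk2 was at 0.06 and the median at 0.03, so the 3 references add no separate check of it.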

How the data were processed

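MECs of lactation day 3 glands were profiled by paired-end SOLiD RNA-Seq (35 and 75 bases), 1 library each for WT and Igfbp7-/-. For every gene the authors deposited an unnormalised read count, an RPM value (the count scaled to the total of mapped reads, 34327854 in WT and 35016847 in Igfbp7-/-) and an RPKM value (the RPM per kilobase of a gene length set by the authors, missing for 733 rows). The submitters' processing notes name Bowtie 0.12.3, SAMtools 0.1.15 and mm9, the methods a human build, although mouse genes are listed. The methods allowed at most 3 mismatches and state that ribosomal, mitochondrial and small nuclear RNA was filtered out. Genes typed as ribosomal RNA nevertheless held 2.95% of mapped reads in WT and 3.15% in Igfbp7-/-. Per the methods, adaptors were ligated so that strand could be recognised, and reads were analysed in the GeneSifter software with a SOLiD Bowtie pipeline. Whether its counting used strand, and how multiply mapped reads were treated, was not given in the sources used here. Reads outside named genes are part of the RPM denominator, and a shift in a few abundant genes moves the RPM of all others. The 50 rows without a symbol held 0.0408% and 0.0484% of mapped reads and were left out.

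Ratios are those of deposited RPM values after adding a pseudocount of 0.1 RPM, which understates ratios of low genes, for genes that reached 1 RPM in either library, and called at 1.5 times. RPKM was used to compare genes. With 1 library per genotype no test was made. Counts of 1 to 20 reads were even for 75.8% and 74.1% of genes, so intervals (95%, Clopper-Pearson for ratios, Poisson for RPM) were computed on read pairs, each count divided by 2. A count of 3 single reads equals 0.0874 RPM for WT and 0.0857 RPM for Igfbp7-/-. It is the limit that a count of 0 allows where single reads are independent, and on read pairs that limit is higher. The members and lists were chosen with earlier results of these data known. Besides the 9 genes, those named were, in each list, up to 3 with the highest and up to 3 with the lowest ratio among called genes that reached 10 RPM in either library, any group of 5 or fewer that is counted, Igfbp7, and the 5 genes nearest to Pdk4. Some genes that meet this rule are not reported here. Coordinates and neighbours are from the NCBIM37 genome with GENCODE vM1. Calculations were tested on simulated data and used Python 3.11.15, numpy 2.4.6, scipy 1.17.1, pandas 2.3.3, matplotlib 3.10.9 and, for TMM factors, edgeR 4.0.16 in R 4.3.3. The alternatives were other pseudocounts, minimum levels, scalings, RPKM and a threshold of 2, and after the data had been seen, levels relative to keratins, Epcam or milk protein genes.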

Additional observations from a re-analysis of the deposited data

How the results depend on the processing

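No paired analysis was possible because each genotype had 1 library, and for the same reason no replicate could be left out. Under the 7 planned changes of pseudocount, scaling or unit, the log2 ratio stayed between 3.34 and 3.67 for Pdk4, 1.75 and 2.08 for Cpt1a, 1.47 and 1.80 for Angptl4, -1.84 and -1.49 for Pdk3 and -0.99 and -0.66 for Ppard. Pdk1 (0.49 to 0.82) and Pparg (-0.59 to -0.26) crossed 1.5 times as described above, Pdk2 ran from -0.08 to 0.25 and Ppara from -0.72 to -0.29. Over all genes, 3006 were higher and 3231 lower (48.2% of those called were higher). These became 4741 and 5279 with no minimum level, 1696 and 1672 with a minimum of 10 RPM, and 1352 and 1936 at 2 times, where the pathway lists had 20 higher and 13 lower and the 9 genes 3 higher and 1 lower. Scaling to reads on listed genes gave 4248 and 2587 (62.2% higher; shift of the median log2 ratio 0.19), with 50 and 18 in the pathway lists. Leaving out the 20 most abundant genes gave 2327 and 3854 (37.6%; shift -0.14), with 33 and 31 in the pathway lists and 3 and 3 of the 9 genes. A pseudocount of 1 RPM gave 3 and 2 of the 9 genes. The median log2 ratio of the 8 counted genes was -1.47 relative to the keratins, where Pdk1 (-1.19) and Angptl4 (-0.24) turned negative, -0.16 relative to Epcam, and 1.82 relative to the milk protein genes, where Ppard turned positive (0.63). The median over all genes moved with these references, to -1.765, -0.467 and 1.505 in the same order. In reads rather than RPKM, Pdk4 made up 73.9% of the PDK sum in WT and 97.4% in Igfbp7-/-. The cause of these differences was not tested. Of 80 summary values over the alternatives, 66 kept their place and 14 did not, and of 198 counts for single lists 171 did and 27 did not. A count kept its place where it stayed within 1.5 times of its main value, and other values where they stayed within a counting interval. This rule is wide. The counts over all genes scaled to reads on listed genes, or without the 20 most abundant genes, kept their place although the split of calls moved as given above. Depth limits most of all Ppara, Bdh2, Cpt1b and Cpt1c, whose intervals include a log2 ratio of 0, then Ppargc1b, Acox2 and Acaa1b, and the missing replicates limit every ratio.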
